A study of Homo sapiens with 12 samples.

Results

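The 5 genes of the endogenous metalloproteinase inhibitor group, TIMP1, TIMP2, TIMP3, TIMP4 and RECK, were examined in a deposited list of accessible chromatin sites. A summit, the point of highest signal in a called site, was assigned to a gene when it lay inside the gene or within 10 kb of either end in RefSeq GRCh38. This gave 20 of the 188019 summits in the list, in 18 intervals, for 5 of 20037 protein-coding genes. Open chromatin had been tagged with a transposase (ATAC-seq) in the established human fibrosarcoma line HT1080. The cells had spent 48 h in rat tail type I collagen at 0.3 mg/mL (low), 1.0 mg/mL (medium) or 1.7 mg/mL (high), with 4 libraries per concentration and 12 in all. Each group, with no exception in the labels, also received GM6001, a synthetic broad inhibitor of matrix metalloproteinases, at 20 µM. The list pooled the libraries and had 0 columns naming a library, so values per concentration, replicate spread and depth per library were not analysed here, and each value below is a single pooled value.

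Matrix metalloproteinases cut collagen and other matrix proteins, and cells hold them in check with secreted tissue inhibitors of metalloproteinases, the TIMPs, which block the zinc-bearing active site of the enzyme. RECK is instead a glycoprotein anchored in the cell membrane that restrains MMP2, MMP9 and MMP14. The TIMPs share a fold but differ in partners. TIMP1 binds the proenzyme of MMP9 and is a poor inhibitor of MMP14, TIMP2 joins MMP14 at the cell surface in the activation of MMP2, TIMP3 is held in the matrix and also inhibits ADAM17 and aggrecanases, and TIMP4 has a more restricted expression. TIMP1, TIMP3 and TIMP4 each lie within a gene for a synapsin, a protein of synaptic vesicles. A site inside one of these TIMP genes is therefore also inside the synapsin gene, and a site just outside it can be inside the synapsin gene alone.

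Promoter sequences show what lies at the starts of these genes. The RefSeq promoter table (GRCh38.p14) held 4 of the 5 genes, and TIMP2 was not among them. The 250 bases before each annotated start are printed 5′ to 3′ on the gene's strand. Capitals mark matches, on either strand, to the GC box GGGCGG (reverse CCGCCC) and the CCAAT box (reverse ATTGG). They come from chrX:47582186-47582435 (plus strand) for TIMP1, chr22:32801455-32801704 (plus strand) for TIMP3, chr3:12158913-12159162 (minus strand) for TIMP4 and chr9:36036663-36036912 (plus strand) for RECK.
TIMP1: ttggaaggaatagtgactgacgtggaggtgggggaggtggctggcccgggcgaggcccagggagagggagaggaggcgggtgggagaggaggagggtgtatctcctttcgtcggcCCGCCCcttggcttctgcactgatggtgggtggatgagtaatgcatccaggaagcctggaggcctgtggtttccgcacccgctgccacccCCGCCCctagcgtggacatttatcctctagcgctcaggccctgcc
TIMP3: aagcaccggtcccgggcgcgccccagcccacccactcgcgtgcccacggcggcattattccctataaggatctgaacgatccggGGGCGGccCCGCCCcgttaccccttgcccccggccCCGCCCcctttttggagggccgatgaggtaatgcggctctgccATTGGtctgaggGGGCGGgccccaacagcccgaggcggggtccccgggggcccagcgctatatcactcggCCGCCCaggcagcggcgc
TIMP4: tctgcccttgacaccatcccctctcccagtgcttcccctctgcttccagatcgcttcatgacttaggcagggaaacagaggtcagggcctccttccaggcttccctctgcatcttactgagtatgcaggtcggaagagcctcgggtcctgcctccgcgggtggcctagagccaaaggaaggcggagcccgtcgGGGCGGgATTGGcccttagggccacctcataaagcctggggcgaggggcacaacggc
RECK: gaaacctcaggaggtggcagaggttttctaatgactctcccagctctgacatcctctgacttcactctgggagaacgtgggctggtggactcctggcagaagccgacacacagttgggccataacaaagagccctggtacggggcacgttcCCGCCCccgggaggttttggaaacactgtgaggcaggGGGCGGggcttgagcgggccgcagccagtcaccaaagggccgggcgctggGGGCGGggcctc

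A GC box was present in 4 of 4 of these promoters, compared with 45.0% of the 35116 promoter windows in the table. Each window has 300 bases, 50 of them after the start. The windows include those of noncoding genes, so shares over all windows are not shares of coding genes. A CCAAT box was present in the promoters of TIMP3 and TIMP4 (2 of 4, compared with 34.6% of all windows). In TIMP3 the GC box occurred 5 times and in RECK 3 times, and in the latter the match nearest the start began 12 bases before it. The other motifs searched on both strands were the AP-1 motif TGANTCA, the TATA box TATAAA, the ETS core CCGGAAG and the E-box CACGTG, and each had 0 matches in the 4 windows. Among all windows these letters were found in 7.71%, 11.5%, 10.3% and 7.26%, respectively. A match describes letters only, and the absence of one says nothing of a factor's binding.

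The 4 promoters were rich in G and C. The TIMP3 window had 72.7% G and C and 31 CpG dinucleotides, the RECK window 66.7% and 22, the TIMP1 window 65.0% and 16, and the TIMP4 window 64.0% and 12. The medians over all windows were 58.7% and 14 CpG dinucleotides. TIMP3 therefore had the most CpG-dense promoter of the 4 (percentile 80.2 among all windows) and TIMP4 the least (percentile 47.6). A summit fell inside the windows of TIMP1, TIMP3 and RECK but not TIMP4 (3 of 4, compared with 32.8% of all windows). The 35116 windows include those of noncoding genes, so 3 of 4 against 32.8% does not compare like with like. Of the 15843 coding genes with an entry, 67.7% had a summit within 1000 bp of the start, a wider span than the window.

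All 5 inhibitor genes had a summit inside or within 10 kb, as did 89.8% of all coding genes, so this count is near the background. Inside the gene itself 3 of 5 had one (TIMP2, TIMP4 and RECK), against 66.1% of coding genes. Within 1000 bp of the start, 4 of 5 had one and TIMP4 had 0, against 65.9% of all coding genes. For TIMP2, and for other genes without an entry in the promoter table, both gene ends stood in for the start in that count. With starts from the table alone it was 3 of 4, against 67.7%. Restricted to summits with a deposited −log10 q of at least 10, the count stayed at 4 of 5, against 60.8%. A count over 5 genes chosen with earlier results known is a description.

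The signal at each summit is given as the deposited enrichment, a ratio of signal to the local background of the peak caller. It is also given as the pileup, the overlap count recovered from that ratio and its p-value. The pileup is called fragments here, but whether the caller counted fragments or reads is not given in the sources used. Intervals in brackets are exact 95% Poisson intervals of the pileup, or of the enrichment with the background held fixed. They cover counting error only, and fragments without molecular identifiers are not independent molecules.

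TIMP1, the inhibitor that pairs with MMP9, had the strongest start of the group. Its annotated span is chrX:47582436-47586789, and its main site, chrX:47582066-47582606, had its summit 127 bp before the start. The enrichment there was 13.2 (12.3 to 14.0), with a pileup of 958 fragments (898.3 to 1020.6) over a background of 71.8 and a −log10 q of 692.8. Among coding genes with a summit at the start, the enrichment stood at percentile 60.3, above the median of 11.9. A smaller site at chrX:47579575-47579966, 2706 bp before the start, had an enrichment of 4.03 (3.59 to 4.52) and a pileup of 295. The 4.35 kb gene itself held 0 summits, although the interval of the main site extended into it. The summit next beyond the 10 kb limit lay 21.2 kb away, at the start of ARAF.

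TIMP2, which acts with MMP14 at the cell surface, had the most sites, 11 summits in 9 intervals, of which 8 lay inside the gene (chr17:78852977-78925387). That was 1.19 summits per 10 kb of window, compared with a median of 0.589 over coding genes (percentile 79.4). Of the 11 summits, 7 had a −log10 q of at least 10. Its strongest sites lay inside the gene, away from both ends. The strongest, chr17:78861941-78862704, had an enrichment of 15.8 (15.0 to 16.5), a pileup of 1638 and a −log10 q of 1301. Its summit was 107 bp from the annotated start of LOC124904068, an uncharacterised long noncoding RNA gene lying within TIMP2. The summit lay 9.36 kb from the lower-coordinate end of TIMP2 and 63.1 kb from the higher. Another, chr17:78883147-78884374, had the highest pileup of the group, 1822 fragments (1739.3 to 1907.6), over a local background of 157.3 fragments. Its enrichment was 11.5 (11.0 to 12.1), below that of the strongest site, whose background was 103.0 fragments.

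At the end of TIMP2 with the higher coordinate, the site chr17:78925237-78925791 had its summit 37 bp outside the gene. Its enrichment was 7.25 (6.38 to 8.19) with a pileup of 253, at percentile 25.0 among coding genes with a summit at the start. The strongest site within the gene thus had 2.17 times the enrichment of the site at this end. A further pair of intragenic summits had enrichments of 7.03 (pileup 208) and 5.08 (pileup 155). The remaining 4 inside the gene were weak, with enrichments of 1.61 to 2.47 and pileups of 45 to 62. A pair of these, in 1 interval, lay 31 and 279 bp from an end of CEP295NL, a coding gene nested in TIMP2. Beyond the higher end, a single interval 8.25 to 8.85 kb away held 2 summits with enrichments of 5.78 and 5.13 over backgrounds near 125 fragments.

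TIMP3, the matrix-bound inhibitor, had the weakest of the 4 start sites and the most CpG-dense of the 4 promoters printed. The site at its start, chr22:32801509-32802202, had its summit 24 bp before the start, an enrichment of 3.99 (3.25 to 4.84), a pileup of 100 and a −log10 q of 28.5. That enrichment stood at percentile 13.5 among coding genes with a summit at the start. A site 4617 bp before the start, chr22:32796795-32797242, had 5.33 (4.47 to 6.31) and a pileup of 134, and the counting intervals of the enrichments at these 2 sites overlapped. The 61.3 kb span of TIMP3, chr22:32801705-32863041, held 0 summits, although the interval of the start site extended across the start into the gene. Of 6269 coding genes of at least 50 kb, a length chosen after the values were seen, 9.78% likewise held 0. The summits next outside the window lay 40.2 and 34.6 kb from the gene, with enrichments of 1.92 and 5.96.

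TIMP4 had a single site, and it was not at the start. The site, chr3:12155804-12156321, lay within the gene (chr3:12153068-12158912), 2884 bp after the start and near the middle of the 5.84 kb span. Its enrichment was 8.99 (7.95 to 10.1), with a pileup of 267 (235.9 to 301.0) and a −log10 q of 154.8. As the highest value in a gene window this stood at percentile 28.4. The summits next outside the window were 163.3 kb away on one side and 16.6 kb on the other.

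RECK, the membrane-anchored inhibitor, had an accessible start and a stronger site far inside the gene. The start site, chr9:36036624-36037627, had its summit 22 bp after the start, with an enrichment of 9.71 (8.73 to 10.8), a pileup of 353 and a −log10 q of 214.5 (percentile 36.7 for enrichment at a start). The strongest site, chr9:36102364-36103351, lay 65.7 kb after the start, with an enrichment of 15.3 (14.3 to 16.3), a pileup of 878 (820.9 to 938.1) and a −log10 q of 688.8. It had 1.57 times the enrichment of the start site, and no annotated start of another gene lay within 1000 bp. The nearest annotated start was that of GLIPR2, 33.9 kb away. A weak site 79.9 kb after the start had 2.30 with 48 fragments, and a site 6.93 kb before it had 6.05 and 128. These 2 were the only summits of the 20 at the genome-wide background of 20.3 fragments, the lowest value in the list, shared by 53.0% of its lines. The gene spans 87.5 kb, chr9:36036913-36124455.

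**Figure D1:**
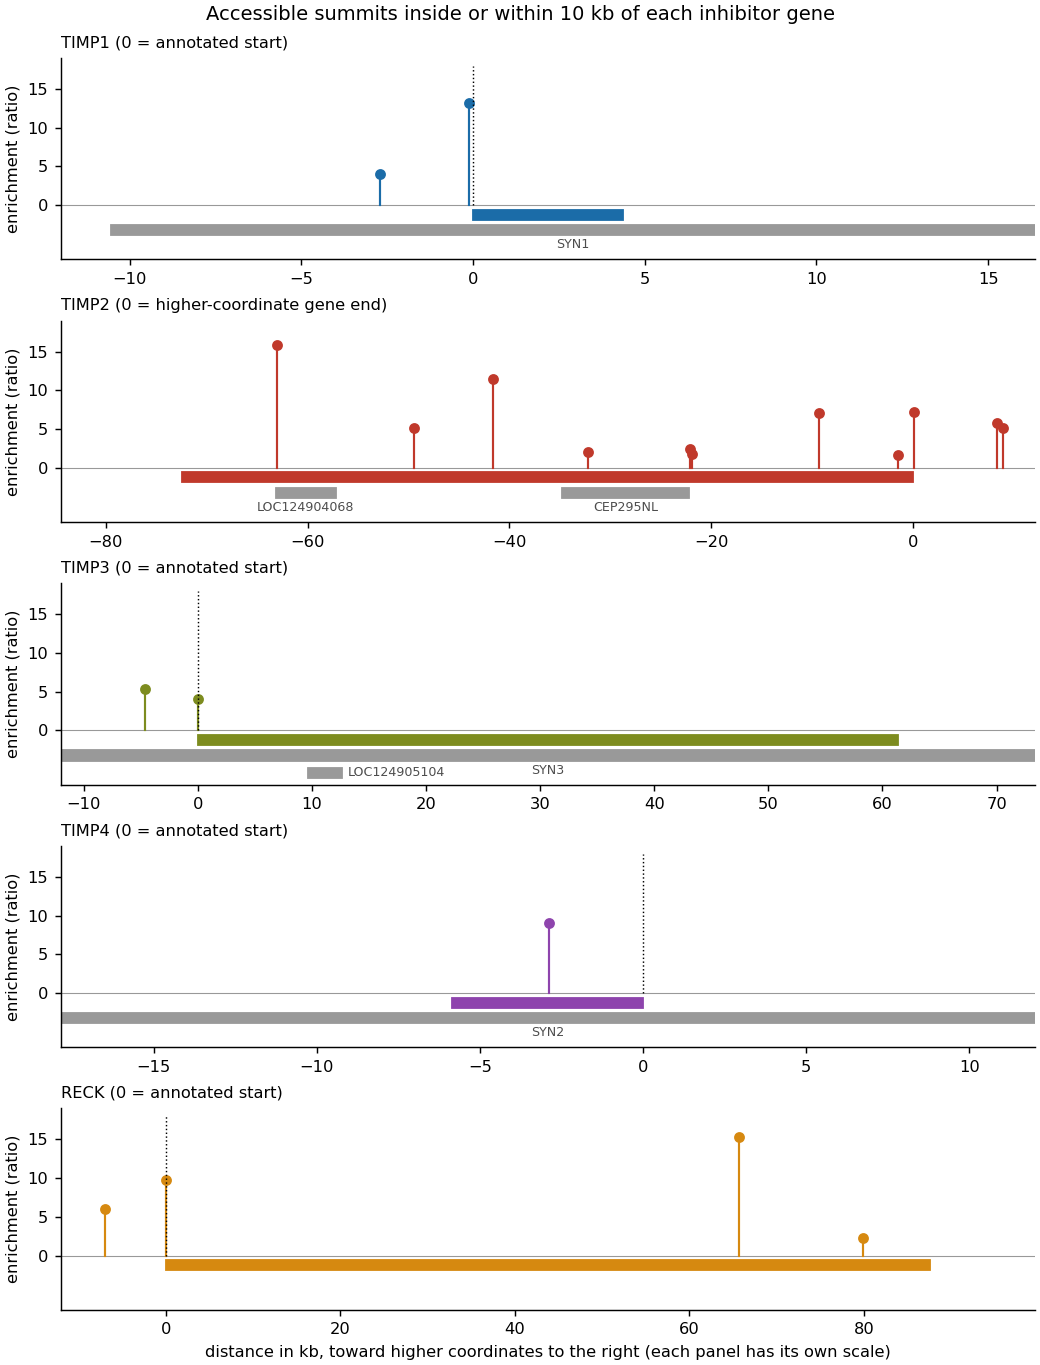
Deposited enrichment (vertical axis, ratio) of each summit against distance in kb from the annotated start, or from the higher-coordinate end for TIMP2, with coordinates rising to the right. Coloured bars are the 5 inhibitor genes and grey bars the genes that overlap them. TIMP1 peaks at its start (13.2), TIMP2 (15.8) and RECK (15.3) peak inside the gene, TIMP3 stays at or below 5.33, and the single TIMP4 summit (8.99) lies inside the gene.

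The strongest summit lay more than 1000 bp from the start in 4 of the 5 genes, with TIMP1 the exception. The same held for 52.4% of coding genes with a summit. By enrichment the start sites ranked in the order TIMP1 (13.2), RECK (9.71), TIMP2 at its end (7.25) and TIMP3 (3.99), and the counting intervals of neighbours in this order did not overlap. Their median enrichment was 8.48 and their median pileup 303, compared with 11.9 and 768 over coding genes with a summit at the start. By the highest enrichment anywhere in the window, TIMP2 (15.8) and RECK (15.3) had overlapping intervals and were followed by TIMP1 (13.2), TIMP4 (8.99) and TIMP3 (5.33). The median of these highest values was 13.2, compared with 12.4 over all coding genes with a summit in the window. TIMP2 stood at percentile 82.3 in this measure and TIMP3 at percentile 12.8.

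**Figure D2:**
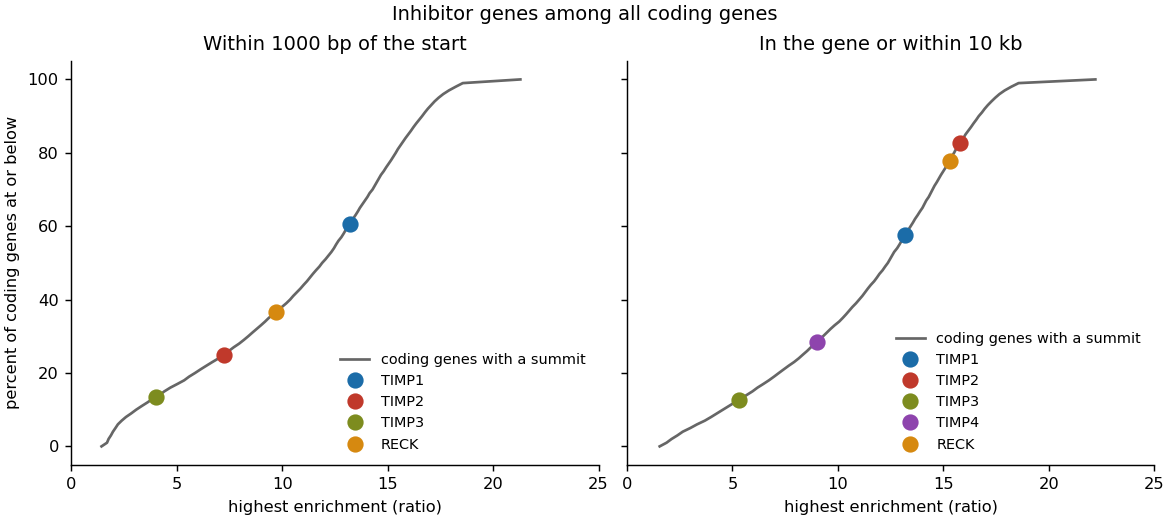
Cumulative percent of coding genes (vertical axis) against their highest enrichment (horizontal axis, ratio) within 1000 bp of the start (left) and in the gene or within 10 kb (right), with the inhibitor genes as coloured points. At the start only TIMP1 (13.2) lies above the median of 11.9, whereas in the wider window TIMP2, RECK and TIMP1 lie above the median of 12.4.

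Enrichment and pileup did not order the sites alike, since the local background differed. RECK's intragenic site had a higher enrichment than the TIMP1 start (15.3 compared with 13.2), yet their pileups of 878 and 958 had overlapping intervals, over backgrounds of 56.6 and 71.8 fragments. The background was raised above the genome-wide value at 18 of the 20 summits and reached 157.3 fragments in TIMP2. Over the 20 summits the median enrichment was 5.55 and the median pileup 230.5, compared with 4.27 and 101 over the whole list. Pileups ranged from 45 to 1822. The inhibitor intervals were 267 to 1228 bp long, with a median of 608.5 bp, compared with 526 bp in the list.

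**Figure D3:**
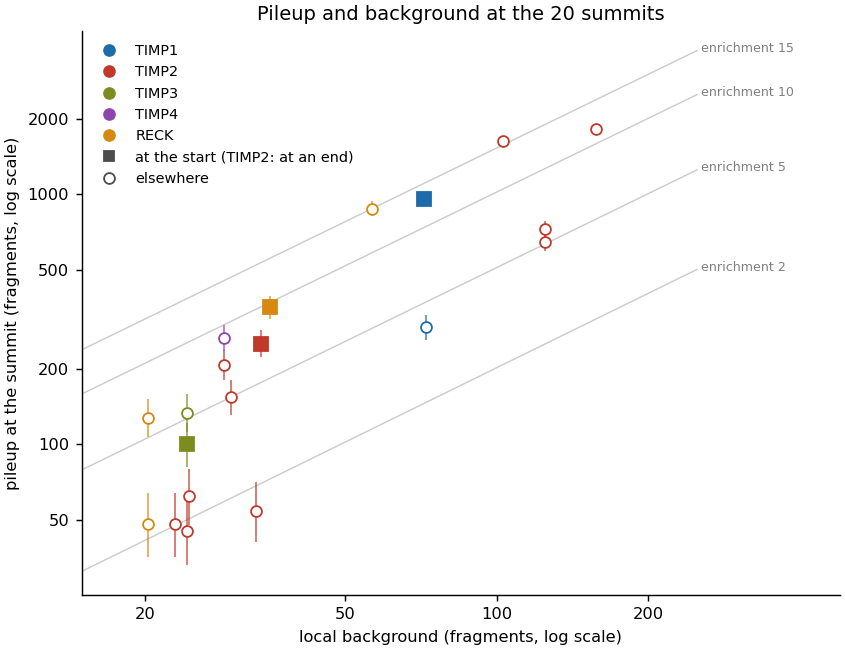
Pileup at the summit (vertical axis, fragments, log scale) against the local background (horizontal axis, fragments, log scale) for the 20 summits, with exact 95% Poisson intervals as bars and grey lines of equal enrichment. Filled squares are summits within 1000 bp of a start (an end for TIMP2) and open circles the others. The highest pileup, 1822 in TIMP2, sits over the highest background, 157.3.

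The host genes showed no accessible start of their own. SYN1, SYN2 and SYN3 had 0 summits within 1000 bp of a start (both ends for SYN3), against 65.9% of coding genes. SYN1 (48.0 kb) held 2 summits, and both were those described at TIMP1. SYN2 (187.6 kb) held 3, of which 1 was the TIMP4 site. SYN3 (550.6 kb) held 20, of which 2 were those at TIMP3 and 18 lay outside the TIMP3 window, with an enrichment of up to 16.1 and a pileup of up to 828. All 5 summits assigned to TIMP1, TIMP3 and TIMP4 lay within a synapsin gene, so the list alone does not assign them to either gene. The annotated start nearest to each was that of the TIMP gene, but the choice of window fixed this as between TIMP and synapsin. From the TIMP starts, the SYN1 start lay 37.4 kb away, that of SYN2 154.5 kb and the nearer end of SYN3 256.7 kb. Nearness therefore does not assign these summits.

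Starts of the neighbouring coding genes varied, some stronger than the inhibitor start and others weaker or without a summit. The median enrichment over coding genes with a summit at the start was 11.9. USP36, a deubiquitinase gene 11.5 kb from TIMP2, had 16.6 with a pileup of 2700 at its start, compared with 7.25 at the TIMP2 end. ARAF, which encodes a RAF kinase, had 13.6 with a pileup of 1063, close to TIMP1 with 13.2 and 958. GLIPR2, 12.1 kb beyond RECK, had 12.4 with a pileup of 651, compared with 9.71 and 353 at RECK. LGALS3BP, which encodes a secreted glycoprotein 45.9 kb from TIMP2, had 6.24 and 272. FBXO7, 302.9 kb from TIMP3, had 11.8, and TAMM41, 306.2 kb from TIMP4, had 14.6. CFP, PPARG and the olfactory receptor gene OR2S2 had 0 summits at a start, as did LOC124905104, a long noncoding RNA gene within TIMP3.

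The proteases that these inhibitors block differed by list in the share with a summit at the start. Of 16 secreted metalloproteinase genes, 7 had a summit within 1000 bp of a start (43.8%, against 65.9% of coding genes), with a median enrichment of 5.16. MMP10, a stromelysin, had the highest value, 9.47, and MMP21 the lowest, 1.53. MMP2, a gelatinase whose activation involves TIMP2, had 0 summits at its start, as did MMP8, MMP11, MMP12, MMP13, MMP20, MMP26, MMP27 and MMP28. Each of these had a summit in the gene or within 10 kb, as did 89.8% of coding genes. Their highest enrichments there ran from 3.42 at MMP27 to 14.5 at MMP11, with 13.0 at MMP2. Of 7 membrane-type genes 5 had one (71.4%, near the 65.9% of coding genes), from 9.37 at MMP16 to 2.22 at MMP25, with MMP14 at 8.37. MMP23B and MMP24 had 0. With a −log10 q of at least 10 required, 4 of the 7 had one, against 60.8% of coding genes.

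Among 11 ADAM and ADAMTS genes, whose products include the targets of TIMP3, 5 had a start summit (45.5%, against 65.9% of coding genes). ADAM10, a sheddase, had the highest enrichment, 17.4, and ADAM15 the lowest, 10.3, while ADAM17 had 13.8 with a pileup of 2152. ADAMTS1, ADAMTS2, ADAMTS4, ADAMTS5, ADAM12 and ADAM33 had 0 summits there, and both aggrecanase genes, ADAMTS4 and ADAMTS5, were among them. All 8 genes of a cell surface list, which holds the TIMP1 partner CD63 and the TIMP3 partner KDR, had one (against 65.9% of coding genes), from 13.8 at CD82 to 3.05 at KDR. Of 15 genes for other protease inhibitors and matrix regulators, 10 had one, from 10.2 at CST3, which encodes cystatin C, to 1.92 at TFPI2. This share of 66.7% is near the 65.9% of coding genes. At a −log10 q of at least 10 the count was 6 of 15, below the 60.8% of coding genes at that cut. A2M, PZP, PCOLCE, SERPINF1 and SPOCK3 had 0.

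**Figure D4:**
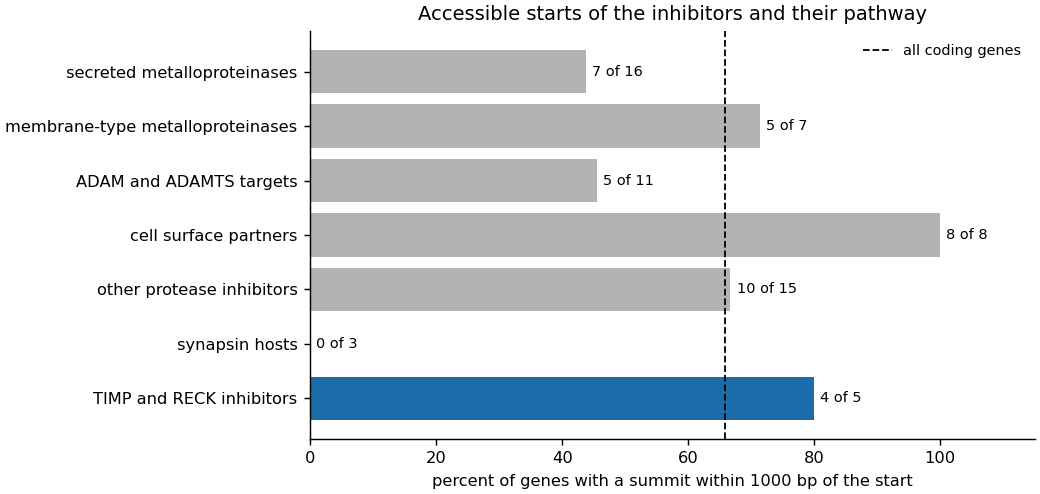
Percent of genes in each list (horizontal axis) with a summit within 1000 bp of the start, with the number of genes beside each bar and all coding genes (65.9%) as the dashed line. The TIMP and RECK group had 4 of 5, the secreted metalloproteinases 7 of 16 and the synapsin hosts 0 of 3.

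The labelled cell type was checked with the same measure. Start summits were present at 9 of 12 mesenchymal marker genes (75.0%, against 65.9% of all coding genes), including VIM (6.64) and FN1 (15.1) but not COL1A1, COL1A2 or THY1. They were present at 5 of 8 neuronal markers (62.5%), so both shares are near the background and do not separate the cell types. The neuronal marker SYP had an enrichment of 17.3, above every mesenchymal marker. Of 9 epithelial markers 2 had one (22.2%), EPCAM with 2.11 and KRT18 with 1.75, and of 6 blood markers 1 had one (16.7%), CD3E with 14.5.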

How the data were processed

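Accessibility was measured by ATAC-seq in 12 libraries. The submitters' processing notes name fastp 0.20.0, Bowtie2 2.4.3, SAMtools, deepTools 3.5.0, MACS2 2.2.7.1 and hg38, with no role given. Duplicate treatment and calling settings are not given in the sources used here. The authors deposited 1 list without a header, holding an enrichment ratio, −log10 p, −log10 q, a score and a summit offset per line. The deposited score equalled 10 times −log10 q, truncated, in 99.8% of lines. The planned fits between concentrations were not run, since the list has no library column.

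Pileup and background were solved from the deposited ratio, taken as (pileup + 1)/(background + 1), and the deposited −log10 p, taken as a Poisson upper tail. Pileups were whole within 0.05 in 99.96% of lines and at all 20 inhibitor summits. On 5000 simulated sites generated with the same formulas 100% were recovered. That checks the solving step only, not whether the deposited values follow the formulas. Starts and strands came from RefSeq GRCh38.p14 promoter entries, present for 15843 of 20037 coding genes. Exon boundaries were not used here. Enrichment percentiles count coding genes with a summit in the same window. The percentile of summits per 10 kb counts all coding genes, with or without a summit, and CpG percentiles count all promoter windows. Python 3.11.15, numpy, pandas and scipy were used. Alternatives changed the window, the start distance, the −log10 q minimum and the unit counted.

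The members, lists and motifs were chosen with earlier results of these data known. Text names the 5 genes, genes overlapping them, the nearest coding gene on each side (1 is not reported here), genes whose start lies at a described summit, and from each list the highest, the lowest and those with 0 summits at a start. MMP14, ADAM17, CD63 and the cell type markers named fall outside this rule and were chosen after their values were seen.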

Additional observations from a re-analysis of the deposited data

How the results depend on the processing

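No paired analysis was possible because the list has no column of a library. For the same reason no replicate could be left out. The count of inhibitor genes with a start summit, 4 of 5, stayed at 4 within 500 or 2500 bp, at a −log10 q of at least 10, with 1 summit per interval, by interval overlap and with both gene ends for every gene. It was 5 within 5000 bp, and 3 of 4 for genes with a promoter entry. The settings of both gene ends, 5000 bp and promoter entries alone were chosen after the data were seen. With the gene body only, 3 of the 5 genes had a summit (TIMP1 and TIMP3 had 0), against 66.1% of coding genes. The total of 20 summits became 12 in the gene body only, 15 at a −log10 q of at least 10 and 50 with a window of 50 kb. For TIMP2 alone the 11 became 7 at that −log10 q. The median highest enrichment over the 5 genes, 13.2, was 15.3 with 50 kb and 11.5 when pileup ranked the summits. With the gene body only it was 15.3, over the 3 genes with a summit there. Within 1000 bp of the start it was 8.48, over the 4 genes with a start summit, so these values cover fewer genes.

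The background share of 89.8% was 66.1% in the gene body only, 84.1% with 2 kb, 96.3% with 50 kb and 86.2% at a −log10 q of at least 10. The share at the start, 65.9%, was 61.5% within 500 bp, 72.3% within 2500 bp, 60.8% at a −log10 q of at least 10 and 65.0% with 1 summit per interval. Among the settings added later it was 78.8% within 5000 bp and 67.7% for genes with a promoter entry. With 10 kb around the gene, a summit was found at 16 of 16 secreted metalloproteinase genes, 10 of 11 ADAM and ADAMTS genes and 3 of 3 synapsin genes. The share of all coding genes in that window was 89.8%, so the low shares of these lists at the start were not seen there. At a −log10 q of at least 10, 6 of the 15 other protease inhibitor genes had a start summit, against 60.8% of coding genes.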
